A study of Rattus norvegicus with 16 samples.

Results

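The 125 probe sets described here are those on a rat expression array whose gene symbol starts with Kcn, Scn and a digit, Cacna, Cacnb or Cacng. They cover 78 genes, out of 8740 probe sets and 4736 genes on the array, and no probe set was annotated to an Hcn gene. Genes of the potassium channel nomenclature that do not open with voltage also follow this rule: 22 of the probe sets belong to inward rectifiers and 4 to tandem-pore leak channels. Total RNA of rat dentate gyrus was measured on 16 Affymetrix RGU34A arrays in 7 groups. Naive tissue had 3 arrays, the 0 h, 2 h and 3 h groups had 2 each, 6 h had 3, and 12 h and 24 h had 2 each. All labels, those of the naive group included, refer to rats trained in passive avoidance, in which an animal learns to refrain from an act that had led to punishment. The naive group was taken as untrained and the hours as trained, although the labels do not state when the hours start. Strain, sex, age and the number of animals behind an array are not in the labels, and a p-value below reflects only how far these samples scatter, a scatter that may be technical.

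Voltage-gated sodium channels carry the rising phase of the action potential, and potassium channels repolarise the membrane and set the firing rate. Calcium channels couple depolarisation to transmitter release and to calcium-dependent signalling. Dentate granule cells fire sparsely, and A-type potassium current and inward rectification are among the conductances that hold them so. Kv3 channels support fast spiking of interneurons.

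The trimmed mean intensity ranged from 33.3 to 170 between arrays before scaling, a 5.11-fold range, and array-to-array correlations ranged from 0.908 to 0.973. The ratio of 3' to 5' beta-actin control signal was 1.51 to 2.80 in trained arrays and 1.49 to 1.70 in naive arrays. Of 10 choroid plexus markers, 8 were on the array, none of them at the lowest level on every array, and their summed level was 334 to 4607 in trained arrays and 2243 to 5614 in naive arrays. Of 9 dentate granule markers 4 were on the array: Calb1, Pdyn and Npy1r were measured, and Tdo2 was below the filter. The summed granule list was 587 to 885 in trained arrays and 629 to 811 in naive arrays. Both the actin ratio and the choroid plexus level thus move with the comparison of trained with naive, and their part in the channel values below was not tested. In tissue RNA, fewer cells of a type and less RNA per cell cannot be told apart.

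Levels are log2 of scaled intensity. The lowest level is 2.28, to which weaker signals were set, and testing required a level above 4.03 on at least 2 arrays. By this filter 79 of the 125 channel probe sets (63.2%) were tested, representing 59 genes, against 71.2% of all probe sets. Of the rest, 41 never exceeded the filter, 6 of which lay at the lowest level on every array. Among the tested channel probe sets, 39 (49.4%) exceeded the filter on all 16 arrays, against 65.2% of all tested probe sets. The median within-group SD was 0.43 for the channels and 0.37 for all. A smaller share of channel probe sets than of all probe sets was thus bright enough to test.

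The families differed in how much of them could be measured. Alpha subunits of calcium channels gave 11 tested probe sets of 19, and those of sodium channels 10 of 16. Among potassium channels 5 of 10 Kv1, 5 of 6 Kv3, 3 of 5 Kv4 and 9 of 11 EAG and erg probe sets were tested. The inward rectifiers gave 14 of 22. Kcnb2, the only Kv2 gene listed, and Scn2b, a sodium channel beta subunit, had 1 probe set each, and neither was tested. Genes best known from other tissues varied in brightness. Kcnmb1 of smooth muscle had a median level of 6.55 on AF020712_at, above the filter on all 16 arrays, and the brightest probe set of the kidney channel Kcnj1 exceeded it on 15 arrays. Cacna1s, the skeletal muscle calcium channel, reached at most 3.28 on 1 probe set and lay at the lowest level on every array on the other. Scn10a of sensory neurons reached at most 3.28. Kcnj13, an inward rectifier of choroid plexus, lay at the lowest level on 13 of 16 arrays, the naive ones included.

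**Figure D1:**
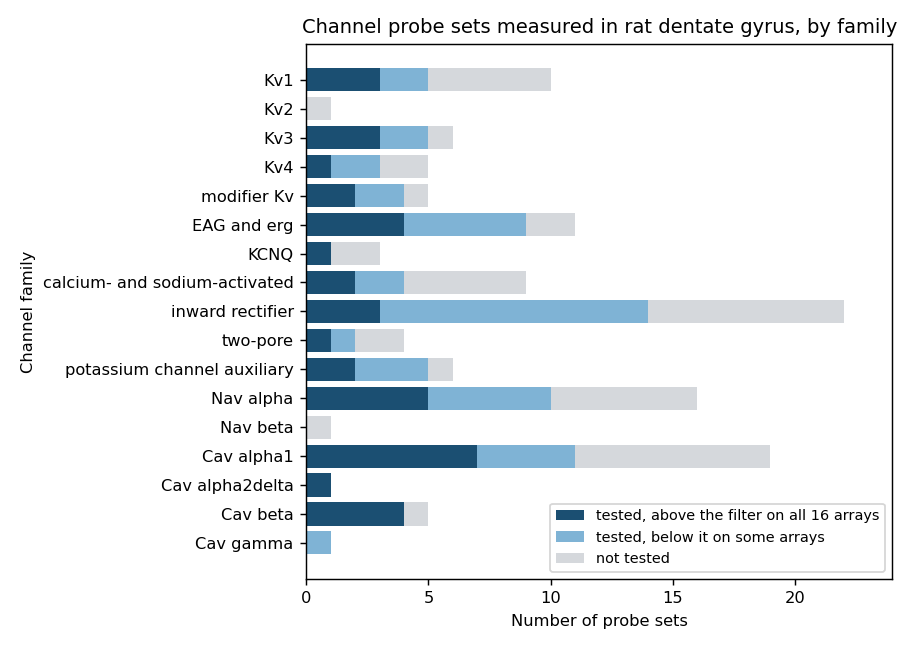
Number of probe sets in each channel family (horizontal axis), split into those above the filter on all 16 arrays, those tested but below it on some arrays, and those not tested. The inward rectifiers have most probe sets (22), of which 14 were tested, and the single Kv2 and Nav beta probe sets were not tested.

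No channel probe set passed the test in any comparison with naive, in the F test across the 7 groups or in that across the 6 trained times. Against naive the lowest limma adjusted p, over all 6220 tested probe sets, was that of Kcnd2 at 12 h. Nor did the array as a whole give many calls: 1 of the 6220 (0.0161%) passed at 2 h and 0% in every other comparison. The lowest limma adjusted p of a channel probe set was 0.960 at 0 h, 0.491 at 2 h, 0.874 at 3 h, 0.373 at 6 h, 0.233 at 12 h and 0.268 at 24 h. It was 0.744 for all trained groups against naive, 0.263 in the F test across 7 groups and 0.231 in that across trained times. The differences below are therefore given as measured values that did not pass the test.

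At an unadjusted p under 0.05 the share of channels was above that of the whole array at 3 h, 12 h and 24 h and below it at 0 h, 2 h and 6 h. At 0 h 3 of 79 (3.80%) were under it, beside 5% of all tested probe sets. The count was 3 at 2 h (3.80%, beside 7.67% of all), 6 at 3 h (7.59%, beside 4.31%) and 7 at 6 h (8.86%, beside 9.41%). It was 13 at 12 h (16.5%, beside 10.1%) and 8 at 24 h (10.1%, beside 4.44%). For all trained groups against naive it was 4 (5.06%, beside 5.35% of all). The F test over the 7 groups gave 10 (12.7%, beside 10.3% of all) and that over the trained times 11 (13.9%, beside 10.8%). At 12 h, 7 of the 13 were higher than naive and 6 lower, at 3 h all 6 were lower, and at 2 h all 3 were higher. The 7 higher at 12 h include Kcna5 and Cacna1c U31815_s_at, which exceeded the filter on no naive array. The part of the filter in these counts was not tested.

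Probe sets whose arrays did not overlap naive were counted next. At 2 h 16 of the 79 channel probe sets (20.3%) lay above every naive array and 3 (3.80%) below, beside 15.3% and 11.7% of all tested probe sets. At 12 h 17 lay above (21.5%) and 8 below (10.1%), beside 15.9% and 11.8% of all. Some of the 17, such as Kcna5, Scn11a and Cacna1c U31815_s_at, exceeded the filter on no naive array. They entered the test through trained arrays, 12 h arrays among them, and the part of the filter in these counts was not tested. At 3 h 1 lay above (1.27%) and 13 below (16.5%), beside 7.3% and 12% of all. At 0 h it was 6 (7.59%) and 7 (8.86%), beside 10% and 11.7%. At 6 h it was 2 (2.53%) and 6 (7.59%), beside 4.34% and 6.56%. At 24 h it was 7 (8.86%) and 11 (13.9%), beside 8.86% and 11.8%. With all 13 trained arrays together, 0 channel probe sets lay clear of naive in either direction, beside 0.0643% of all above and 0.193% below; by limma 4 of the 79 had an unadjusted p under 0.05 there.

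The median channel probe set differed little from naive at any hour. Its log2 difference was -0.05 at 0 h, 0.12 at 2 h, -0.15 at 3 h, -0.07 at 6 h, 0.13 at 12 h and 0.01 at 24 h, beside -0.02, 0.03, -0.07, -0.03, 0.06 and -0.00 over all tested probe sets in the same order. Higher than naive were 35, 45, 25, 34, 49 and 41 of the 79. The low value at 3 h depended on the scaling: it was 0.00 after quantile normalization and 0.02 after median centring, with 40 and 41 probe sets higher. Median centring moved the median of all probe sets at 3 h by 0.18. It also rested on 1 array, since without 3 h replicate 2 it was 0.04 and without 3 h replicate 1 it was -0.29. The 2 h median was -0.02 without 2 h replicate 1 and 0.27 without 2 h replicate 2.

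**Figure D2:**
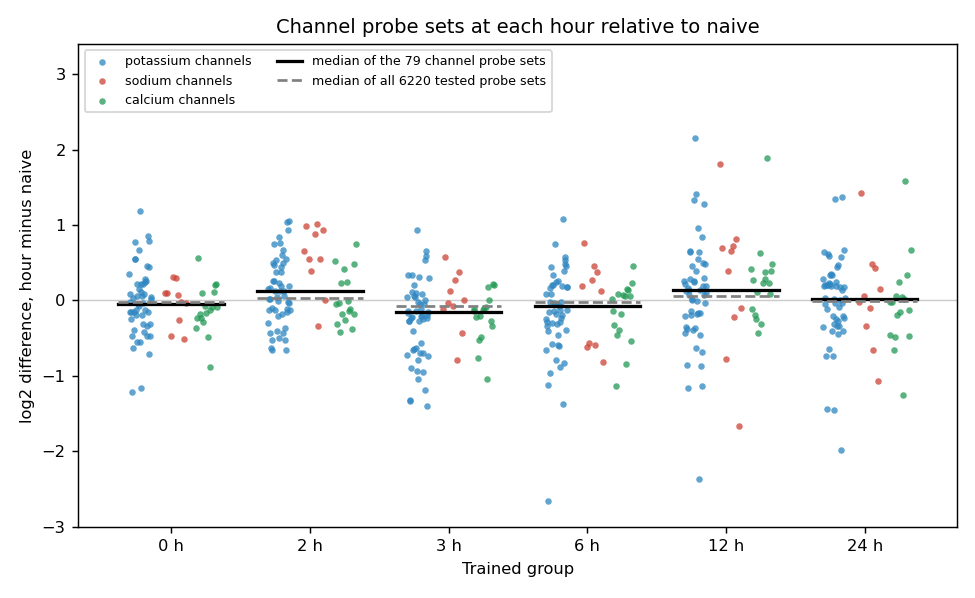
Log2 difference from naive (vertical axis) of each of the 79 tested channel probe sets at each trained hour (horizontal axis), coloured by ion. Black bars are the channel medians, from -0.15 at 3 h to 0.13 at 12 h, and dashed grey bars the medians of all 6220 tested probe sets. The widest departures are Kcnab1 at 6 h (-2.66), Kcnd2 at 12 h (-2.37) and Kcna5 at 12 h (2.16).

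Where a gene had several tested probe sets, they often disagreed. This applied to 17 channel genes. Their probe sets lay on the same side of naive in 7 of 17 genes at 0 h, 13 at 2 h, 11 at 3 h, 6 at 6 h, 5 at 12 h, 8 at 24 h and 7 for all trained groups. Over all 1091 genes with several probe sets the shares were 51.2%, 55.1%, 60.6%, 49.7%, 51.6%, 56.6% and 51.2%. Probe sets of related channel genes can share sequence, and in the platform's naming the suffix _s_at marks a probe set that can also match another transcript. Each probe set is therefore given by its own name below.

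**Figure D3:**
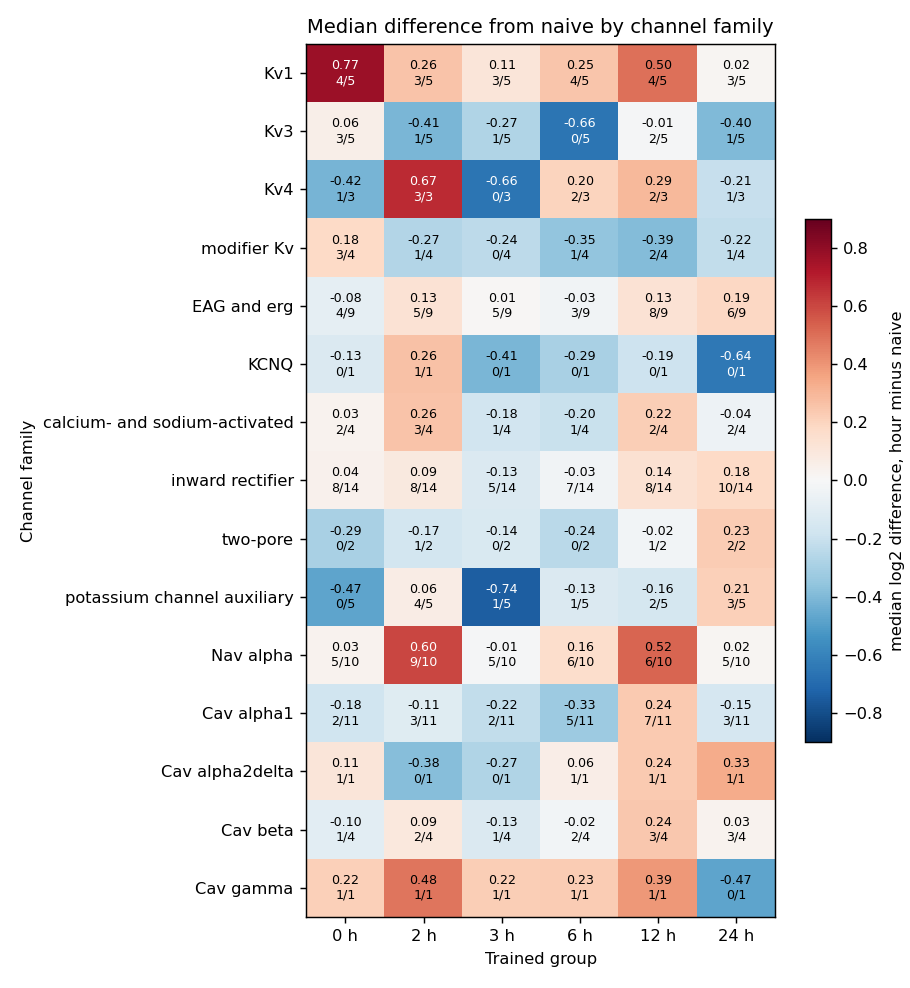
Median log2 difference from naive (upper number and colour) for each channel family (rows) at each trained hour (columns), with the number of tested probe sets higher than naive over the number tested (lower number). The sodium channel alpha subunits at 2 h had 9 of 10 higher with a median of 0.60, and Kv1 at 0 h 4 of 5 with 0.77. Both counts include probe sets that exceeded the filter on trained arrays alone.

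Among sodium channel alpha subunits, which form the pore, 9 of 10 tested probe sets were higher at 2 h than in naive tissue, with a median log2 difference of 0.60 beside 0.03 over all probe sets. After quantile normalization or median centring 8 of 10 were higher. The count of 9 includes Scn9a AF000368_at and Scn11a, which exceeded the filter only on 2 h and 12 h arrays. They thus entered the test partly through the group in which they are counted as higher. At the other hours the family was split, with 5 of 10 higher at 0 h, 3 h and 24 h and 6 of 10 at 6 h and 12 h. After median centring the count was 7 at 0 h and 8 at 3 h. The exception at 2 h was Scn1a, the Nav1.1 subunit prominent in interneurons, at -0.34, and it was lower than naive at every hour, between -0.22 at 12 h and -0.79 at 3 h, although with 1 array left out the difference was 0.30 at 0 h (without 0 h replicate 1) and 0.02 at 12 h (without 12 h replicate 2). Interneuron markers, with 7 of 7 on the array and 6 tested, summed to 1123 to 2255 in trained arrays and 1133 to 2094 in naive arrays.

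Scn2a, the main sodium channel of unmyelinated hippocampal axons, led the F test over the 7 groups. Probe set M22254_at measured 7.84, 8.06 and 7.42 in naive arrays, 7.33 and 7.27 at 0 h, and 8.21 and 8.44 at 2 h. The later arrays gave 8.02 and 7.46 at 3 h, 6.76, 7.17 and 7.52 at 6 h, 7.04 and 6.96 at 12 h, and 7.88 and 7.78 at 24 h. Both 2 h arrays lay above every naive array, both 0 h and both 12 h arrays lay below, and 1 of the 6 h arrays overlapped naive. The log2 difference was -0.47 at 0 h, 0.55 at 2 h, -0.62 at 6 h and -0.77 at 12 h (SE 0.25, 0.23 at 6 h), and the limma adjusted p over the 7 groups was 0.263.

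Scn3a, abundant in fetal brain and lower in the adult, had a pair of probe sets from the same sequence entry. Y00766_at measured 4.19, 4.09 and 4.14 in naive arrays, 3.60 and 3.65 at 0 h, 4.94 and 5.20 at 2 h, and 4.28 and 3.13 at 3 h. It then gave 3.91, 3.83 and 5.06 at 6 h, 2.37 and 2.59 at 12 h, and 3.64 and 2.51 at 24 h. Y00766_g_at measured 6.17, 6.05 and 6.23 in naive arrays, 6.27 and 6.64 at 0 h, 6.99 and 7.08 at 2 h, and 6.27 and 5.90 at 3 h. It then gave 5.76, 6.93 and 6.59 at 6 h, 6.67 and 6.94 at 12 h, and 6.36 and 5.75 at 24 h. At 2 h both probe sets lay above every naive array, by 0.93 (SE 0.49) and 0.88 (SE 0.31). At 12 h they lay on opposite sides, clear of naive each time: -1.66 (SE 0.49) for Y00766_at and 0.65 (SE 0.31) for Y00766_g_at.

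Scn2a and Scn3a are neighbours, read in opposite directions from starts 44.8 kb apart on rat chromosome 3. Both probe sets of Scn3a and that of Scn2a were higher at 2 h. The 250 bases before each annotated start are shown because these genes led the channel genes in the F test over the 7 groups. The bases are from RefSeq on build GRCr8, 5' to 3' on the gene's strand. Scn2a lies on the plus strand with this window at chr3:70710706-70710955, and Scn3a on the minus strand with its window at chr3:70666199-70666448.
Scn2a: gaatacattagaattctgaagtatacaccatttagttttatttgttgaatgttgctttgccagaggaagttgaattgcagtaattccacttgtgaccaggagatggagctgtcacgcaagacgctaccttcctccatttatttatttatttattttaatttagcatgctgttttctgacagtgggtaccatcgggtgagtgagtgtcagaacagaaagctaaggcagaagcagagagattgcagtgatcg
Scn3a: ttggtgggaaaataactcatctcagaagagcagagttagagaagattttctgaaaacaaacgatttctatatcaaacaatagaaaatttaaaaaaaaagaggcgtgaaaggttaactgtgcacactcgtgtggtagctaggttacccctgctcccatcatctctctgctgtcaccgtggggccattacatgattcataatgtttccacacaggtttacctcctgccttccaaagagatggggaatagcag
Both windows are poor in G and C (39.6% and 41.6%). Neither holds any of the motifs searched on both strands, which were the cyclic AMP response element TGACGTCA, its core TGACG, the GC box GGGCGG, the EGR site GCGNGGGCG, the TATA box TATAAA, and the neuron-restrictive silencer element. Every full response element also counts as a core.

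The same windows were available for 58 of the 78 channel genes and for 33469 promoters in all. Each channel gene counts once, whereas the 33469 are every promoter available and not only those of genes on the array. The shares are therefore of unlike sets, and the differences between them were not tested. A GC box occurred in 28 of the 58 (48.3%) and in 30.5% of all, an EGR site in 9 (15.5%) and in 4.29% of all, and a TATA box in 3 (5.17%) and in 12.9% of all. The response element core occurred in 12 (20.7%) and in 18.2% of all. The full response element and the silencer element occurred in 0 of the 58, beside 1.59% and 0.00598% of all. The strict letters searched for the silencer element matched only 2 of the 33469 promoters. Finding none in the channel windows therefore does not show that these genes lack the element.

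Other sodium channels were dimmer. Scn9a, best known from peripheral sensory neurons, measured 4.47 and 4.06 at 2 h on AF000368_at, against 3.39, 3.50 and 2.86 in naive arrays. The 2 h arrays were clear of naive, at a difference of 1.01 (SE 0.42). This probe set exceeded the filter on 3 arrays, both 2 h arrays and 12 h replicate 2. It thus entered the test only through groups in which it was high. The other Scn9a probe set, U79568_s_at, was not tested. That one measured 2.28 and 3.35 at 2 h, against 2.44, 3.32 and 2.81 in naive arrays, with overlap. Scn8a, the main channel of mature axon initial segments, measured 4.04, 5.13 and 5.43 at 6 h on L39018_at, against 5.57, 5.80 and 5.65 in naive arrays. All 3 arrays at 6 h lay below naive, and the difference of -0.81 (SE 0.30) was -0.40 without 6 h replicate 1. Its second tested probe set AF049239_s_at differed by -0.56 (SE 0.50) at 6 h, with overlap, and by 0.05 without 6 h replicate 1. Scn7a, the sodium-sensing channel of glia, was higher by 0.81 at 12 h, and Scn11a, another sensory neuron channel, by 1.81, with its highest value on 12 h replicate 1. Scn11a exceeded the filter on 3 arrays, 2 h replicate 1 and both 12 h arrays, and on no naive array.

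**Figure D4:**
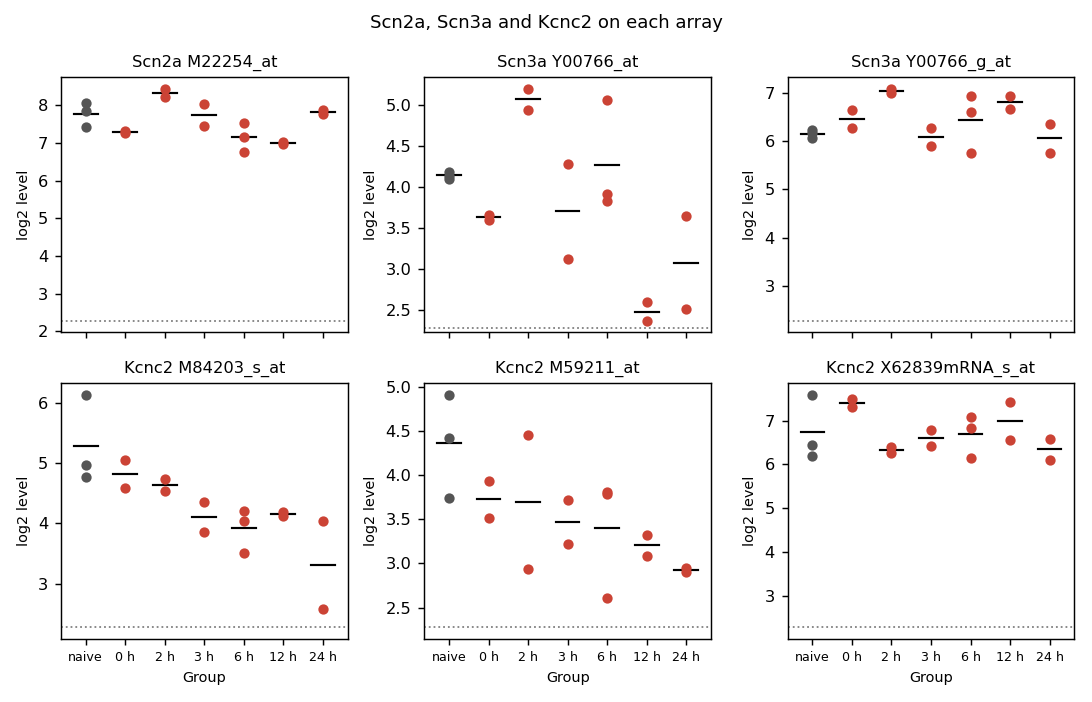
Log2 level (vertical axes) on every array of each group (horizontal axes) for Scn2a, both Scn3a probe sets and the 3 tested Kcnc2 probe sets. Grey points are naive arrays, red points trained arrays, bars group means and dotted lines the lowest level of 2.28. The 2 h group has the highest mean for Scn2a and both Scn3a probe sets, and for 2 of the 3 Kcnc2 probe sets every trained group mean lies below the naive mean.

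Kv3 channels deactivate quickly and allow fast spiking. Their 5 tested probe sets were all lower at 6 h (median -0.66 beside -0.03 over all probe sets), with 1 of the 5 higher under quantile normalization or median centring. At 2 h, 3 h and 24 h 1 of the 5 was higher each time, or 2 at 3 h after median centring. Kcnc1, the Kv3.1 subunit, differed by -0.59 at 6 h, or -0.20 without 6 h replicate 1. Kcnc4, the Kv3.4 subunit, differed by -0.66, or -0.29 without naive replicate 3.

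Kcnc2, the Kv3.2 subunit of interneurons and thalamic relay cells, had 4 probe sets. M84203_s_at measured 6.14, 4.78 and 4.96 in naive arrays, 5.05 and 4.59 at 0 h, 4.53 and 4.75 at 2 h, and 4.36 and 3.86 at 3 h. It measured 4.04, 3.51 and 4.21 at 6 h, 4.19 and 4.13 at 12 h, and 2.58 and 4.04 at 24 h. From 2 h on every trained array lay below every naive array. The log2 difference was -1.18 (SE 0.47) at 3 h, -1.37 (SE 0.42) at 6 h, -1.13 (SE 0.47) at 12 h and -1.98 (SE 0.47) at 24 h. Over all trained groups it was -1.13 (SE 0.33, limma adjusted p = 0.744), and -0.71 without naive replicate 1, which held the highest value. At 24 h the difference was -1.25 without 24 h replicate 1.

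A second Kcnc2 probe set, M59211_at, gave 2.90 and 2.95 at 24 h, against 4.91, 4.43 and 3.75 in naive arrays, without overlap. It exceeded the filter on 3 arrays, naive replicates 1 and 2 and 2 h replicate 2. It differed by -1.44 (SE 0.54) at 24 h and by -0.96 (SE 0.38) over all trained groups. The brightest, X62839mRNA_s_at, did not share this: it measured 6.11 and 6.58 at 24 h, against 6.45, 6.19 and 7.59 in naive arrays, with overlap. Over all trained groups it differed by -0.01 (SE 0.27), a value that turns positive under the other scalings. The remaining probe set, M59313_at, reached at most 3.92 and was not tested. Interneuron markers summed to 1208 to 1539 at 24 h and 1133 to 2094 in naive arrays, and oligodendrocyte markers (6 of 7 on the array) to 2513 to 2763 at 24 h and 4009 to 5471 in naive arrays. Their part in the Kcnc2 values was not tested.

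Kv4 channels carry the A-type current of dendrites. All 3 tested probe sets were higher at 2 h (median 0.67) and all 3 lower at 3 h (median -0.66), 2 of them without 3 h replicate 2. Kcnd2, the Kv4.2 subunit that limits backpropagating spikes, gave the lowest adjusted p of any channel against naive. M59980_s_at measured 7.07, 6.59 and 6.03 in naive arrays, 6.23 and 6.05 at 0 h, 6.94 and 7.54 at 2 h, and 5.92 and 6.08 at 3 h. The later groups gave 5.29, 5.40 and 6.37 at 6 h, 5.68 and 2.71 at 12 h, and 6.43 and 5.82 at 24 h. Both 12 h arrays lay below naive, far apart from each other. The difference of -2.37 (SE 0.59, limma adjusted p = 0.233) was -0.88 without 12 h replicate 2 and -3.85 without 12 h replicate 1, when it passed (limma adjusted p = 0.00283).

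The other Kcnd2 probe set, S64320_at, measured 6.87 and 6.61 at 12 h, against 6.43, 5.82 and 6.05 in naive arrays, so it lay above naive where M59980_s_at lay below. Its difference was 0.64 (SE 0.31) at 12 h, 0.47 at 2 h and -0.66 at 3 h. At 3 h its arrays (5.76 and 5.13) were below every naive array, and the difference was -0.35 without 3 h replicate 2. Kcnd3, the Kv4.3 subunit, had 1 tested probe set of 3, with differences of 0.94 at 2 h and -1.40 at 3 h. Its 3 h arrays measured 5.23 and 2.31, against 4.61, 5.74 and 5.14 in naive arrays, and without 3 h replicate 2 the difference was 0.06. The window before the annotated start of Kcnd2 is shown because the gene was among the first channel genes with a window in the F test over the 7 groups. It lies on the plus strand at chr4:50742235-50742484 (GRCr8, RefSeq).
Kcnd2: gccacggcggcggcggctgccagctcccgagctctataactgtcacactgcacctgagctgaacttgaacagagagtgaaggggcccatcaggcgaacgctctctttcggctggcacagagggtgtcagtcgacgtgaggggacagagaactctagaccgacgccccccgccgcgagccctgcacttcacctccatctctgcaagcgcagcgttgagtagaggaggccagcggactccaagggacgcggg
At 64% G and C this window is much richer in them than those of the sodium channels, and it also holds none of the motifs searched.

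Kv1 channels set the threshold for firing and repolarise axons. Their 5 tested probe sets gave 4 higher at 0 h, with a median of 0.77 (5 higher after median centring), and 4 higher at 12 h with a median of 0.50. Kcna1, the Kv1.1 subunit, had the brightest probe set of the family, X12589cds_s_at, which ranged from 6.98 to 8.24 over all arrays and differed by -0.34 to -0.04 at the 6 hours, turning to 0.02 at 0 h and 6 h after median centring. Kcna2, Kcna3 and Kcna6 stayed below the filter.

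Kcna4, the A-type Kv1.4 subunit of axons and terminals, measured 5.39 and 5.56 at 0 h on M32867_at, against 4.40, 4.59 and 5.13 in naive arrays. The groups did not overlap, and the difference was 0.77 (SE 0.36, limma adjusted p = 0.972). On X16002cds_s_at it measured 5.81 and 5.33 at 24 h, against 4.48, 5.48 and 2.64 in naive arrays, with overlap. That difference of 1.37 (SE 0.55) was 0.59 without naive replicate 3, and the difference of 0.83 over all trained groups was 0.05 without it. Kcna5, the Kv1.5 subunit also found in vessels and glia, measured 5.61 and 3.85 at 12 h, against 2.38, 2.73 and 2.61 in naive arrays. Both 12 h arrays lay above naive, at 2.16 (SE 0.69, limma adjusted p = 0.342), and the difference was 1.28 without 12 h replicate 1. Kcna5 exceeded the filter on 3 arrays, replicate 1 of 0 h, of 3 h and of 12 h, and on no naive array. The summed endothelial and mural markers (5 of 7 on the array) were 247 to 320 at 12 h and 152 to 247 in naive arrays, and their part in the Kcna5 value was not tested.

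Silent Kv subunits form no channel alone and modify Kv2 channels. Kcnf1 measured 4.30, 3.92 and 3.82 in naive arrays, while 12 of its 13 values in trained arrays lay below them; at 2 h replicate 1 it was 4.48. Kcnf1 exceeded the filter on 2 arrays, naive replicate 1 and 2 h replicate 1. The difference over all trained groups was -0.98 (SE 0.45, limma adjusted p = 0.931). Kcng1 measured 4.37 and 3.94 at 12 h, against 4.98, 5.31 and 4.78 in naive arrays, a difference of -0.87 (SE 0.34) without overlap. Kcns3 and Kcnv1 differed by 0.45 or less in size at every hour.

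EAG and erg channels shape slow repolarisation, and 8 of their 9 tested probe sets were higher at 12 h, by a median of 0.13 beside 0.06 over all probe sets, but 7 after quantile normalization and 6 after median centring. Kcnh3, a forebrain channel of this family, measured 4.95 and 5.63 at 12 h on AF073892_s_at, against 4.77, 3.38 and 4.84 in naive arrays (0.96, SE 0.54, and 0.48 without naive replicate 2). On the brighter AJ007627_at it measured 8.71 and 8.38 at 24 h, against 8.22, 8.13 and 7.44 in naive arrays. That was a difference of 0.62 (SE 0.26) without overlap, and of 0.37 without naive replicate 3. Kcnh5 measured 3.13 and 3.69 at 3 h, against 4.03, 4.44 and 4.56 in naive arrays, a difference of -0.93 (SE 0.40).

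Kcnq3, a subunit of the M-current that muscarinic receptors close, was measured on AF091247_s_at. It gave 5.17 and 5.41 at 24 h, against 5.81, 6.13 and 5.87 in naive arrays, without overlap (-0.64, SE 0.27, limma adjusted p = 1). Its 2 h arrays, 6.26 and 6.13, lay just above naive, at 0.26. Kcnq1 was at the lowest level on every array.

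Potassium channels opened by calcium or sodium were mostly below the filter, with 4 of 9 probe sets tested. Kcnma1, the large-conductance BK channel, had 1 tested probe set of 4, which differed by -0.83 at 6 h and 0.57 at 24 h. These were -0.39 without naive replicate 3 and -0.02 without naive replicate 2. Kcnmb1, a BK beta subunit of smooth muscle, measured 4.41 and 4.31 at 12 h on AB010963_s_at, against 3.65, 2.38 and 3.06 in naive arrays. These did not overlap, at 1.33 (SE 0.58). AB010963_s_at exceeded the filter on 3 arrays, 6 h replicate 1 and both 12 h arrays, and on no naive array. The same probe set was at 2.31 and 2.28 at 24 h. On AF020712_at the difference was -0.20 (SE 0.33) at 12 h and 0.19 at 24 h, so the probe sets did not share this course.

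Inward rectifiers hold the resting potential, and in granule cells they keep it far from threshold. The 14 tested probe sets were evenly split at most hours, with 10 higher at 24 h (median 0.18) and 5 at 3 h (median -0.13), or 10 at 3 h after quantile normalization and 8 after median centring. Kcnj1, best known from kidney tubules, measured 4.61 and 3.44 at 3 h on S78154_at, against 5.33, 5.28 and 5.43 in naive arrays. Both lay below naive, at -1.32 (SE 0.38, limma adjusted p = 0.874), and the difference was -0.74 without 3 h replicate 2. The other Kcnj1 probe sets differed by -0.19 (AF081365_s_at, near 0 under the other scalings) and 0.30 (AF081366_s_at) at 3 h. Kcnj10, the Kir4.1 channel of astrocytes, differed by 1.08 at 6 h on a probe set whose values ranged from 2.28 to 4.40. This probe set exceeded the filter on 2 arrays, 6 h replicates 1 and 2 (4.40 and 4.28). It thus entered the test only through the group in which it was high. The other Kcnj10 probe set, U27558_at, was not tested. That one lay at 2.28 on every 6 h array and measured 3.82 and 3.43 at 0 h. Kcnj3, a subunit of G-protein-gated channels, was lower than naive at every hour on U09243_at (-1.45 at 24 h and -0.74 over all trained groups). U09243_at exceeded the filter on 2 arrays, 2 h replicate 1 and 12 h replicate 1, and on no naive array. On U72410_s_at Kcnj3 differed by -0.32 over all trained groups but by 0.04 at 24 h, so the probe sets did not share the low 24 h value. Without 2 h replicate 2 the U09243_at difference at 2 h was 0.50, and without 12 h replicate 2 that at 12 h was 0.36. Without naive replicate 2 the U72410_s_at difference over all trained groups was -0.12. Kcnj11, the pore of the ATP-sensitive channel, had a pair of probe sets from 1 sequence entry that stayed within -0.43 and 0.34 of naive.

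Tandem-pore leak channels were represented by Kcnk1 and Kcnk5. Kcnk1 ranged from 7.03 to 7.71 on all arrays but 6 h replicate 2, where it was 5.72.

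Auxiliary potassium channel subunits bind Kv1 or KCNQ channels and alter their gating or delivery. None of the 5 tested probe sets was higher at 0 h (median -0.47). At 3 h 1 was higher, and the median of -0.74 was the value of Kcnab3, which lay at the lowest level on both 3 h arrays and on naive replicate 2. At 2 h 4 were higher, or 2 after median centring. Kcnab1, the Kv beta 1 subunit that confers inactivation, measured 6.44, 6.74 and 6.39 in naive arrays, 6.41 and 6.15 at 0 h, 6.76 and 6.31 at 2 h, and 6.78 and 5.72 at 3 h. It then gave 2.65, 2.45 and 6.50 at 6 h, 6.34 and 5.99 at 12 h, and 6.81 and 6.66 at 24 h. Only 6 h replicates 1 and 2 were low among the 16 arrays, and 6 h replicate 3 lay within naive. The difference at 6 h was -2.66 (SE 0.70, limma adjusted p = 0.373). Without 6 h replicate 3 it was -3.97 (limma adjusted p = 5.63e-06).

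Kcnab2, the most abundant Kv beta subunit of brain, measured 4.12 and 4.51 at 3 h on X76724_at, against 5.42, 4.89 and 5.48 in naive arrays, a difference of -0.95 (SE 0.37) without overlap. The far brighter rc_H33656_at differed by 0.20 (SE 0.28) at 3 h. At 0 h it gave 8.71 and 9.55, against 9.80, 9.95 and 9.30 in naive arrays, with overlap (-0.55, SE 0.28, and -0.13 without 0 h replicate 1). Kcne1, the partner of Kcnq1 in heart, was 4.14 and 2.28 at 0 h, against 4.03, 5.29 and 3.81 in naive arrays. Its difference of -1.16 (SE 0.53) was -0.23 without 0 h replicate 2.

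Calcium channel alpha1 subunits, which form the pore, were lower than naive in most probe sets at 5 of the hours: 2 of 11 were higher at 0 h, 3 at 2 h, 2 at 3 h, 5 at 6 h and 3 at 24 h. At 3 h it was 5 of 11 under either other scaling. At 12 h 7 of 11 were higher (median 0.24). The medians ran from -0.33 at 6 h to 0.24 at 12 h, and over all trained groups 4 of 11 were higher (median -0.15). Cacna1a, the P/Q-type channel of nerve terminals, was lower at every hour on rc_AI229031_s_at, between -0.23 and -0.52, but 0.24 at 0 h without 0 h replicate 1. On AF051526_at it was lower at 0 h and 24 h and higher at 2 h by 0.52. Its remaining tested probe set, M99222_s_at, exceeded the filter on 8 arrays and lay at the lowest level on 2. There Cacna1a differed by -0.88 at 0 h, -1.04 at 3 h, -0.84 at 6 h and -1.25 at 24 h, where no array overlapped naive. The M99222_s_at mean at 12 h was 4.51, against 4.23 in naive arrays. Cacna1b, the N-type channel, differed by -0.54 at 6 h on AF055477_at and 0.07 on M92905_s_at. Cacna1h, a low-threshold T-type channel, differed by -1.14 at 6 h, or -0.54 without naive replicate 3, and Cacna1g, another T-type channel, by 0.06.

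Cacna1c, the L-type channel that couples activity to nuclear signalling, had 3 probe sets, of which 2 were tested. U31815_s_at was at 2.28, 2.28 and 2.61 in naive arrays, 2.34 and 2.28 at 0 h, 2.28 and 2.28 at 2 h, and 2.50 and 2.28 at 3 h. It measured 2.28, 2.28 and 3.04 at 6 h, 4.45 and 4.12 at 12 h, and 4.10 and 3.86 at 24 h. The 12 h and 24 h arrays were thus the 4 highest, and the others were at or near the lowest level. It exceeded the filter on 3 arrays, all at 12 h or 24 h, so it entered the test only through the groups in which it was high. The difference was 1.89 (SE 0.51, limma adjusted p = 0.274) at 12 h and 1.59 (SE 0.51, limma adjusted p = 0.743) at 24 h. The limma adjusted p at 12 h was 0.00490 without the filter and 0.0401 without a variance trend.

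The bright Cacna1c probe set M59786_at followed another course. It measured 6.39, 6.69 and 6.59 in naive arrays, 7.27 and 6.98 at 0 h, 6.27 and 6.23 at 2 h, and 6.58 and 6.09 at 3 h. The later groups gave 6.33, 6.40 and 5.95 at 6 h, 6.78 and 6.86 at 12 h, and 6.59 and 6.47 at 24 h. Arrays at 0 h and 12 h lay above every naive array and those at 2 h below. The difference was 0.57 (SE 0.23, limma adjusted p = 0.960) at 0 h, 0.27 at 12 h and -0.03 at 24 h. The remaining probe set reached at most 3.09. The window before the annotated start is shown because Cacna1c followed Scn2a and Scn3a among channel genes in the F test over the 7 groups. It lies on the minus strand at chr4:154051749-154051998 (GRCr8, RefSeq). Capitals mark the response element core, the 1 motif match found in the 4 windows printed here, 146 bases before the start.
Cacna1c: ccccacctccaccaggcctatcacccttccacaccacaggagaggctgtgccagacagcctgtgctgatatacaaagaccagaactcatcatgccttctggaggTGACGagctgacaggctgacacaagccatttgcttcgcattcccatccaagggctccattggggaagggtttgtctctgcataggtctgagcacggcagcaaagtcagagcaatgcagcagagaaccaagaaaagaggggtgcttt
This core occurs in 18.2% of all promoters, so the match describes the letters and no binding.

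**Figure D5:**
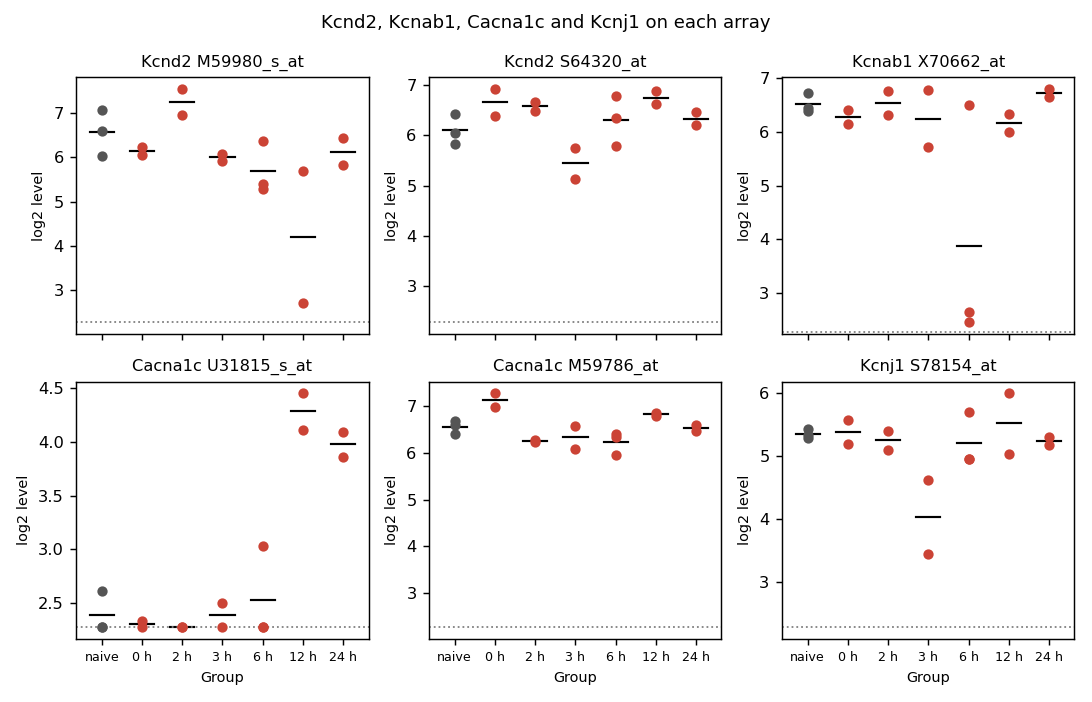
Log2 level (vertical axes) on every array of each group (horizontal axes) for both Kcnd2 probe sets, Kcnab1, the tested Cacna1c probe sets and the Kcnj1 probe set S78154_at. Grey points are naive arrays, red points trained arrays, bars group means and dotted lines the lowest level of 2.28. Single arrays stand apart for Kcnd2 M59980_s_at at 12 h (2.71), and 2 of 3 arrays for Kcnab1 at 6 h (2.65 and 2.45).

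Auxiliary calcium channel subunits govern how many channels reach the membrane, and they were steadier. Cacna2d1, the alpha2delta subunit that binds gabapentin, ranged from 8.19 to 9.36. It measured 8.66 and 8.19 at 2 h, against 8.89, 8.94 and 8.59 in naive arrays (-0.38, SE 0.23), and 9.36 and 8.92 at 24 h (0.33). Cacnb1 measured 6.27 and 6.01 at 12 h, against 4.96, 5.98 and 5.58 in naive arrays, just clear of them at 0.63 (SE 0.32), or 0.36 without naive replicate 1. Cacnb2 and Cacnb3 stayed within -0.23 and 0.37 of naive. Cacng1, the gamma subunit of skeletal muscle, differed by 0.48 at 2 h and -0.47 at 24 h (SE 0.34), or 0.25 without naive replicate 3 and -0.24 without naive replicate 1.

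Proteins that anchor, phosphorylate or degrade these channels were taken from a list of 45 genes, of which 30 were on the array and 28 were tested. None of the 28 passed limma's test in any comparison. At an unadjusted p under 0.05 they numbered 0 at 0 h (beside 5% of all tested probe sets), 4 at 2 h (14.3%, beside 7.67%), 4 at 3 h (14.3%, beside 4.31%) and 9 at 6 h (32.1%, beside 9.41%). At 12 h there were 3 (10.7%, beside 10.1%) and at 24 h 2 (7.14%, beside 4.44%). More of them were lower than naive than higher at most hours: 19 of 28 at 0 h, 18 at 2 h, 25 at 3 h, 19 at 6 h, 14 at 12 h and 23 at 24 h. The median was -0.22 at 3 h and -0.28 at 6 h, beside -0.07 and -0.03 over all probe sets. After median centring 17 of 28 were lower at 3 h (median -0.08), and 14 at 0 h. How far the 3 h count of partners rests on 3 h replicate 2 was not tested.

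By the F test over the 7 groups the first of them was Camk2b, a subunit of calcium/calmodulin-dependent kinase, which differed by 1.62 (SE 0.38, limma adjusted p = 0.236) at 2 h. Prkaca, the catalytic subunit of protein kinase A, differed by -0.90 (SE 0.25) at 2 h. Dlg3, a synaptic scaffold, differed by -1.07 (SE 0.31) at 6 h and -1.02 (SE 0.35) at 12 h. Sgk1, a kinase induced by glucocorticoids, differed by -0.80 (SE 0.31) at 3 h and -0.51 (SE 0.22) over all trained groups. Nedd4, a ubiquitin ligase, differed by 1.01 (SE 0.51) at 2 h and -0.90 at 3 h. Its 3 h arrays measured 7.01 and 5.21, against 6.89, 7.41 and 6.74 in naive arrays, so only 3 h replicate 2 lay below naive.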

How the data were processed

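Each array's total RNA gave 1 intensity per probe set in the authors' deposited table; how they were summarised, corrected and scaled is not given in the sources used. Of 8799 rows, 59 controls were removed, and every array was brought to a trimmed mean of 101 (2% trimmed). A lowest level was set at 4.86, the 20th percentile of all arrays pooled, before taking log2. The filter for testing was 16.3, the 40th percentile, to be exceeded on 2 or more of the 16 arrays, and 6220 probe sets met it. GEO's platform annotation, after an update of symbols through Entrez gene IDs, gave 1 symbol to 7006 probe sets, several to 308 and none to 1426.

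The test was limma 3.58.1 in R 4.3.3, with lmFit, a variance trend in eBayes and the 7 groups in 1 fit, with Benjamini-Hochberg adjustment over all 6220 at 0.05. Comparisons were each hour against naive, the mean of the 6 trained groups against naive, and F tests across 7 groups and across 6 trained times. All comparisons with naive share the same 3 naive arrays. The number of arrays limits the precision. The fit was tested on simulated arrays. Members and gene lists were chosen with earlier results of these data known. The rule for named genes took the 4 channel probe sets with the smallest p in each comparison with naive, the 5 smallest in each F test, the smallest of each family, and other probe sets of those genes; of the partners, the 5 smallest were named. Values on all 16 arrays are printed for the leading ones, and for the rest those of the hour concerned and of naive or a range. Other members were named within their family. Alternatives covered normalization, the lowest level, a pseudocount of 16, the filter, the variance trend, weights per array, the replicate number as a block, fits restricted to the compared groups, and each array left out in turn.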

Additional observations from a re-analysis of the deposited data

Results flagged for a closer look

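Some channel probe sets had every array of 1 trained group above every naive array and every array of another group below. This held for 9 of the 79 tested channel probe sets (11.4%), beside 655 of 6220 over the whole array (10.5%). The difference between the hours was not tested for any of them by itself. Kcnd2 on S64320_at was higher by 0.47 at 2 h and 0.64 at 12 h and differed by -0.66 at 3 h. Kcns3 differed by 0.45 at 0 h and -0.41 at 24 h. Kcnh2, the erg1 channel, differed on U75210_s_at by -0.12 at 2 h and 0.30 at 3 h. Kcnq3 differed by 0.26 at 2 h, -0.29 at 6 h and -0.64 at 24 h. Kcnmb1 on AB010963_s_at differed by 1.33 at 12 h and -0.74 at 24 h. Scn2a differed by -0.47 at 0 h, 0.55 at 2 h and -0.77 at 12 h. Scn3a on Y00766_at differed by -0.51 at 0 h, 0.93 at 2 h, -1.66 at 12 h and -1.06 at 24 h. Cacna1a on AF051526_at differed by -0.37 at 0 h, 0.52 at 2 h and -0.46 at 24 h. Cacna1c on M59786_at differed by 0.57 at 0 h, -0.31 at 2 h and 0.27 at 12 h.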

How the results depend on the processing

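Of 407 values of the comparisons under an alternative, 389 were kept. Every count was 0 to begin with, so a count was kept only if it stayed at 0. A median was kept if it moved by no more than 0.13, the within-group SD of the array medians over the channel probe sets. That SD is near the size of the largest medians (-0.15 at 3 h and 0.13 at 12 h), so a kept median can still vanish or change sign. The medians lie near 0, and 18 of 175 had the other sign under an alternative, at sizes up to 0.091. Without the filter, 1 channel probe set passed at 0 h (Kcnj10 U27558_at) and 1 at 12 h (Cacna1c U31815_s_at). In each F test 4 passed (Cacna1c U31815_s_at, Kcnd3 U92897_s_at, Kcnj10 U27558_at and Kcnj12 X78461_at). Those of Kcnd3, Kcnj10 and Kcnj12 did not meet the filter and are not the probe sets whose differences are given above. U27558_at lay at the lowest level on 12 arrays, X78461_at reached at most 3.31, and U92897_s_at exceeded the filter on 1 array. Without a variance trend, 1 passed at 12 h and in each F test (Cacna1c). With an array left out, the counts ranged from 0 to 1 at 6 h, at 12 h and in both F tests: without 6 h replicate 3 Kcnab1 passed at 6 h and in both F tests, and without 12 h replicate 1 Kcnd2 passed at 12 h and over the trained times. Where 1 array of a group remained, it was assumed to vary like the other groups. The cause of these changes beyond the number of probe sets or arrays was not tested. For single probe sets, Kcnab1 at 6 h was -3.97, Kcnd2 at 12 h -3.85 and Cacna1c at 12 h 1.89 in these fits.

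The channel median at 3 h was 0.0022 after quantile normalization and 0.019 after median centring, and ranged from -0.29 to 0.043 with an array left out. At 2 h it ranged from -0.024 to 0.27. Not every pair with the same replicate number had a correlation of deviations over 0.1, the criterion for pairing: 12 of 43 did (-0.20 to 0.19, median 0.025), beside 6 of 66 with different numbers (median -0.024). With a replicate block 0 channel probe sets passed in each comparison, and the medians were -0.070, 0.14, -0.18, -0.069, 0.14 and -0.0011 from 0 h to 24 h and -0.025 for all trained groups. Signal near the lowest level limits the dim families most.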
